A study of Mus musculus with 1152 samples.

Results

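The MHC class II genes comprise 7 members, chosen by name: H2-Aa, H2-Ab1 and H2-Eb1, Cd74, Ciita, H2-DMa and H2-DMb1. All 7 were found among 48587 genes. They were followed in microglia, the macrophages that live within brain tissue, with 1 sorted cell in each well. Libraries were made with Smart-seq2, which covers whole transcripts and has no molecular identifiers. Mice were 5xFAD, a transgenic line that forms amyloid plaques from transgenes expressed in neurons, or wild type (WT). The labels give the strain C57BL/6J for both genotypes and no age, sex or other treatment. Cells came from 5xFAD cortex (183 kept wells, 4 mice), WT cortex (167, 4 mice), 5xFAD hippocampus (154, 3 mice), WT hippocampus (182, 4 mice), 5xFAD cerebellum (193, 3 mice) and WT cerebellum (162, 4 mice). The regions were taken from the same animals. All cells were sorted after staining for CD11b, CD45, Ly6C, Ly6G and CD206, the last of which is the product of Mrc1.

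MHC class II molecules are the surface complexes on which professional antigen-presenting cells show peptides to CD4 T cells. H2-Aa and H2-Ab1 encode the alpha and beta chains of I-A, and H2-Eb1 encodes the beta chain of I-E, whose alpha chain gene is not functional in C57BL/6 mice. Cd74, the invariant chain, occupies the groove of new molecules until lysosomal proteases remove it. The H2-DM dimer of H2-DMa and H2-DMb1 then exchanges the last fragment for peptide. Ciita is the co-activator that switches the family on. Microglia of the healthy brain hold little class II, whereas macrophages at the borders of the brain often hold much.

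In the genome (GRCm38, GENCODE M21) the I-A, I-E and H2-DM genes lie together on chromosome 17, with H2-Ab1 from 34257689 to 34269419, H2-Aa from 34282744 to 34287823, H2-Eb1 from 34305867 to 34316674, H2-DMa from 34119541 to 34139101 and H2-DMb1 from 34153072 to 34160230. Ciita lies on chromosome 16 from 10480059 to 10528418 and Cd74 on chromosome 18 from 60803848 to 60812652.

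The filter asked for 500 detected genes, 10000 gene reads and a mitochondrial share no higher than 20%, which left 1041 of 1140 wells. Median depth ran from 198492 to 343580 reads in genes per group. Deposited columns of plate columns 1 and 2 held sums over several wells. Those 96 columns were recovered by subtraction, and results without these wells were computed for each genotype and region comparison. Each plate held 2 groups: WT hippocampus with WT cortex, 5xFAD hippocampus with 5xFAD cerebellum, and 5xFAD cortex with WT cerebellum. Within each region the genotypes were on different plates, so that genotype and plate cannot be told apart there. The labels do not say whether the numbered mice came from separate litters, so p-values measure the spread between these mice. In the wells outside the macrophage-marker call defined below, the 9 microglia markers (among them P2ry12 and Tmem119) were all detected in each group, with a summed level of 38918 to 59248 counts per 1000000 gene reads (CPM) over the mice. In the macrophage-marker wells the same markers summed to 264 to 18985 CPM, with Sall1 at 0. Intervals and limits below cover counting error only, since reads are not molecules and wells are grouped in mice. Those on shares of wells pool the wells of all mice of a group, and leave out the spread between mice.

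The first split was by macrophage markers. A well with at least 2 of Mrc1, Pf4 and Ms4a7, genes of border macrophages, at 50 CPM or more was called a macrophage-marker well. There were 28, namely 0 of 183 in 5xFAD cortex, 1 of 167 in WT cortex, 0 of 154 in 5xFAD hippocampus, 1 of 182 in WT hippocampus, 14 of 193 in 5xFAD cerebellum and 12 of 162 in WT cerebellum. That is 7.25% of 5xFAD cerebellar wells (95% exact binomial interval 4.02 to 11.9%, wells pooled over mice) and 7.41% of WT cerebellar wells (3.89 to 12.6%). By the limit of 3 counts, a count of 0 allows a share of up to 1.64% in 5xFAD cortex and 1.95% in 5xFAD hippocampus; the exact binomial intervals end at 2.00% and 2.37% there. Every cerebellar mouse had some, 3 to 6 in 5xFAD and 1 to 5 in WT. Cx3cr1 passed 50 CPM in all 28 wells, P2ry12 in 13 and Sall1 in 0, whereas P2ry12 passed it in 97.4% and Sall1 in 69.0% of the other 1013 wells. The call was graded at its edge: 12 wells had 2 markers, 16 had 3, and 37 wells just outside had 1.

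These 28 wells were 2.69% of all kept wells and 3.19% of all reads, and they carried most of the reads of 5 members. They held 91.4% of the H2-Aa reads, 87.0% of H2-Ab1, 93.9% of H2-Eb1, 84.8% of Cd74 and 72.9% of Ciita. Of H2-DMa and H2-DMb1 they held 10.1% and 16.4%. The invariant chain gene Cd74 had a median of 36008 CPM in the macrophage-marker wells (lowest 1185, highest 75630), against a median of 0 CPM in the other wells. H2-Aa had a median of 22802 CPM, H2-Ab1 of 14384 and H2-Eb1 of 13406 in the macrophage-marker wells, against 0 CPM each in the other wells. H2-DMa differed less, with a median of 926 CPM against 200 CPM, and H2-DMb1 had 617 CPM against 19.3 CPM. Ciita passed 50 CPM in 13 of the 28 wells and in 6 of the other 1013.

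**Figure D1:**
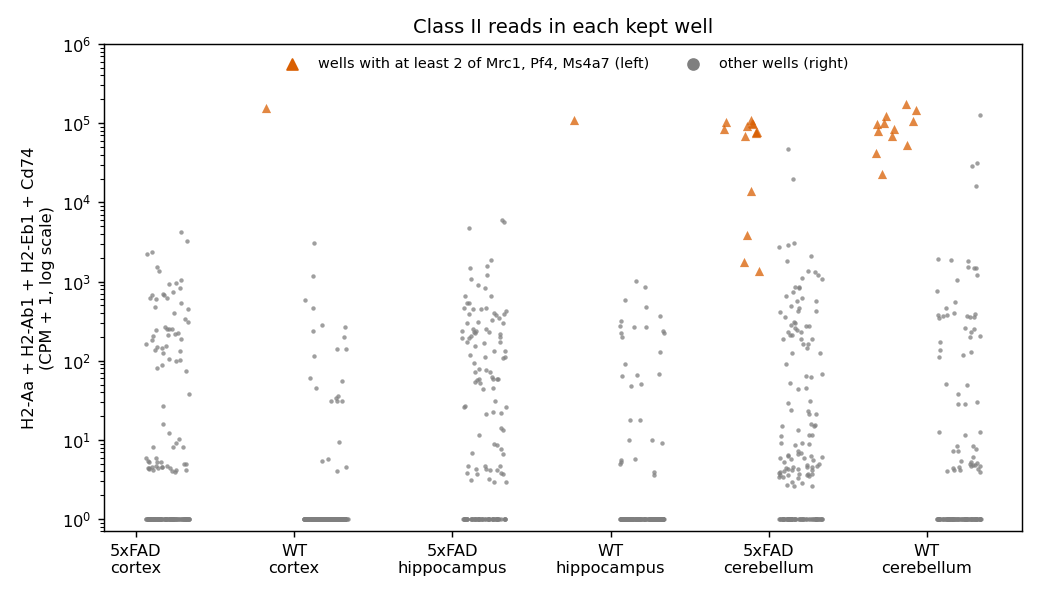
Summed level of H2-Aa, H2-Ab1, H2-Eb1 and Cd74 in each kept well, as CPM + 1 on a log axis, by genotype and region; triangles (left) are macrophage-marker wells and points (right) the other wells. Most of the 28 triangles lie far above the points of their group, some of 5xFAD cerebellum lie lower, 6 other wells of the cerebellum reach 15892 to 128373 CPM, and many other wells lie at 0.

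Pooled over all groups and per length of the annotated exons, the order of the members changed with the class. In CPM per kilobase of exon (RPKM), the macrophage-marker wells had Cd74 at 19735, H2-Eb1 at 7179, H2-Ab1 at 5849, H2-Aa at 5114, H2-DMb1 at 455, H2-DMa at 313 and Ciita at 17.2. The other wells had Cd74 at 116, H2-DMa at 91.9, H2-DMb1 at 76.6, H2-Ab1 at 28.8, H2-Aa at 15.9, H2-Eb1 at 15.3 and Ciita at 0.210. These are pooled values with no test, and the order was not examined within groups. Exons of H2-DMa overlap Brd2 and those of Ciita overlap Dexi, both on the opposite strand. Those of Cd74 overlap Mir5107 on the same strand, and H2-DMb1 has a near copy, H2-DMb2. The counts of these members are therefore less certain.

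Class II promoters are known for a conserved module near the start, with an X box bound by the RFX complex, an X2 box bound by CREB-family factors and a Y box bound by NF-Y, on which Ciita docks. Promoter windows were taken from RefSeq (GRCm38.p6) for H2-Aa, H2-Eb1, H2-DMa and H2-DMb1. The 250 bases before the start are printed for the 3 members in which the Y box TGATTGG was found; they are shown because H2-Aa and H2-Eb1 are 2 of the members that differed most between the classes and H2-DMb1 one that differed less. Capitals mark TGATTGG and TGATGATG, a form of the X2 box. Other forms of the X2 box were not searched, so a window without capitals for it may still hold one.
H2-Aa, chr17:34287824-34288073, minus strand: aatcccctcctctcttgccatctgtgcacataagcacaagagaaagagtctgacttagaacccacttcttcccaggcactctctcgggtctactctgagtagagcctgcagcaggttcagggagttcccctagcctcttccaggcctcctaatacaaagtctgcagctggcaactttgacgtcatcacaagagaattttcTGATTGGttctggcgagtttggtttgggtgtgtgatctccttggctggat
H2-Eb1, chr17:34305617-34305866, plus strand: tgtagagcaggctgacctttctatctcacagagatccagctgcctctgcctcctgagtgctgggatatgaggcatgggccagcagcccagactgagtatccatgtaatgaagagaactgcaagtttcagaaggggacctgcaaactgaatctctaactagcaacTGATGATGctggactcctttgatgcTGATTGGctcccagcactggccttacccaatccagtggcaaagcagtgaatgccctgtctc
H2-DMb1, chr17:34152941-34153190, plus strand: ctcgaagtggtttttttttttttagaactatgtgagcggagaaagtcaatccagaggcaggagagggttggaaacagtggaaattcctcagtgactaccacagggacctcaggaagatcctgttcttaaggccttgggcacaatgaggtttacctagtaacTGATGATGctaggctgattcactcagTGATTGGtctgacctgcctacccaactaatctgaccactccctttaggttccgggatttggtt
Counted from the start, TGATTGG began at position -50 in H2-Aa, -61 in H2-Eb1 and -63 in H2-DMb1, on the strand of the gene. TGATGATG began at -86 in H2-Eb1 and -89 in H2-DMb1. With both strands searched, TGATTGG was in 7.23% and TGATGATG in 1.24% of 32851 RefSeq windows of this length. Neither run of letters was in the 2 windows of H2-DMa, at 34122582 to 34122831 and 34125268 to 34125517. Both lie inside the annotated gene, which runs from 34119541 to 34139101. The H2-DMb1 window ends at 34153190, inside its annotated gene, which begins at 34153072. Its positions are thus counted from a RefSeq start within that gene. Other starts of H2-DMa were not examined.

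The difference between the classes was tested in the cerebellum, the region in which each of the 7 mice had wells of both. Reads were summed per mouse and class, and edgeR's quasi-likelihood test had the mouse as a block. Of the 7 members 5 rose in macrophage-marker wells, beside 0.528% of all 8718 genes tested called higher. Of these 5, Cd74 and H2-Ab1 met the filter on low counts in both classes. H2-Aa, H2-Eb1 and Ciita met it only through the macrophage-marker sums, where they are high, so their calls are not independent of that class. Fold changes are log2, given with the standard error (SE) from the test and with a p adjusted by Benjamini-Hochberg over all genes tested. Cd74 rose by 6.66 ± 0.52 (adjusted p = 3.13e-34), with 8890 to 50860 CPM in the macrophage-marker sums, against 32.9 to 2641 CPM in the others. H2-Ab1 rose by 7.80 ± 0.63 (adjusted p = 1.76e-31), with 6546 to 21970 CPM against 5.64 to 1380 CPM. For both genes the 2 classes did not overlap, which held for 7.57% of all genes tested in either direction.

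H2-Eb1 rose by 11.09 ± 2.66 (adjusted p = 0.0326), H2-Aa by 10.10 ± 2.69 (adjusted p = 0.0461) and Ciita by 6.54 ± 2.05 (adjusted p = 0.0134) in the same fit. H2-Aa and H2-Eb1 were higher in 7 of 7 mice, at 6746 to 26810 and 6133 to 21670 CPM in the macrophage-marker sums, against 0.117 to 1369 and 0.128 to 691 CPM in the others. Ciita was higher in 6 of 7. These 3 calls depended on single mice. The single macrophage-marker well of WT mouse 3 had 18905 reads; without that mouse H2-Aa had 8.79 (adjusted p = 0.0816), H2-Eb1 9.74 (0.0714) and Ciita 5.73 (0.0911). Without 5xFAD mouse 1, H2-Aa had 9.41 (adjusted p = 0.112) and H2-Eb1 10.47 (0.0855); without 5xFAD mouse 2, H2-Aa had 11.24 (0.0606); and without 5xFAD mouse 3, H2-Aa had 9.17 (0.106) and Ciita 5.66 (0.0603). With the mouse not a block, Ciita had 4.71 (adjusted p = 0.117).

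H2-DMb1 had 1.93 ± 0.83 (adjusted p = 0.0744) and H2-DMa 0.96 ± 0.68 (adjusted p = 0.294) and did not pass in the main fit. Of 4 alternative settings with all mice, H2-DMb1 failed to pass in 1 and passed in the others. Its fold change ran from 1.74 to 2.21 over these settings, and its adjusted p from 0.00966 to 0.38. H2-DMa passed in none of the 4. H2-DMa had 258 to 1538 CPM in the macrophage-marker sums, against 279 to 717 CPM in the others, and was higher in 5 of 7 mice. Without WT mouse 3 both passed, H2-DMb1 at 2.33 (adjusted p = 0.00456) and H2-DMa at 1.22 (adjusted p = 0.0217). The median of all genes tested was -2.68 in this fit, and all 7 members lay above it.

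In all, 6 wells of the cerebellum without the call had class II levels like those with it, and they weigh on what follows: 4 in WT (3 of mouse 2 and 1 of mouse 1) and 2 in 5xFAD (both of mouse 2). Summed over H2-Aa, H2-Ab1, H2-Eb1 and Cd74 they had 15892 to 128373 CPM. Of the 6, 5 had 1 of the 3 macrophage markers and the other had 0. The highest, in WT mouse 2, had 55429 CPM of Cd74, 850 CPM of Ciita and 9276 CPM of Ccr2, a monocyte receptor gene, and 0 CPM of P2ry12. The WT wells of this kind held 90.9% of the reads of these 4 genes in the other wells of WT cerebellum, and the 5xFAD wells 52.4% in 5xFAD cerebellum. The highest sum in a well outside the call in any other group was 5959 CPM, in 5xFAD hippocampus.

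With the macrophage-marker wells set aside, 1013 wells remained, and in most of them the I-A and I-E genes were not detected. The share of wells at 50 CPM or more averaged, for Cd74, 19.8% ± 9.78 (SD, n = 4 mice) in 5xFAD cortex and 4.35% ± 4.13 (n = 4) in WT cortex. In hippocampus it was 32.2% ± 8.05 (n = 3) in 5xFAD and 7.20% ± 3.86 (n = 4) in WT, and in cerebellum 23.9% ± 8.66 (n = 3) in 5xFAD and 18.4% ± 9.25 (n = 4) in WT. H2-Ab1 averaged 10.3% in 5xFAD and 2.88% in WT cortex, 17.02% in 5xFAD and 3.36% in WT hippocampus, and 11.3% in 5xFAD and 6.92% in WT cerebellum. H2-Aa and H2-Eb1 stayed between 0.543% and 4.64% in all 6 groups. H2-DMa was found in 50.9% to 70.6% of wells and H2-DMb1 in 36.9% to 53.7%, and Ciita in 0 to 1.67%. Depth differed between the groups, so wells were also thinned to 50000 reads, with 3 reads as the limit: Cd74 then averaged 19.3% in 5xFAD and 6.46% in WT cortex, 31.3% in 5xFAD and 7.35% in WT hippocampus, and 24.3% in 5xFAD and 17.3% in WT cerebellum.

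The levels below are CPM of reads summed per mouse over the wells outside the call, scaled with TMM. The 5xFAD cortex had Cd74 at 57.6, 185, 65.0 and 166 CPM, against 9.12, 3.61, 1.36 and 71.8 CPM in WT cortex. WT mouse 4 lay within the 5xFAD range and the other 3 WT mice far below it. The 5xFAD hippocampus had 248, 147 and 225 CPM, against 17.3, 6.22, 33.3 and 19.6 CPM in WT hippocampus, and the genotypes did not overlap. The 5xFAD cerebellum had 201, 469 and 101 CPM, against 165, 2138, 110 and 26.9 CPM in WT cerebellum, where WT mouse 2, with 3 of the high wells above, exceeded every other sum.

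By median over mice the order of Cd74 was 5xFAD hippocampus (225 CPM), 5xFAD cerebellum (201), WT cerebellum (137), 5xFAD cortex (115), WT hippocampus (18.5) and WT cortex (6.37). The values of neighbours in this order overlapped at each step except that from 5xFAD cortex to WT hippocampus, whose ranges were 57.6 to 185 and 6.22 to 33.3 CPM. H2-Ab1 had a median of 41.7 CPM in 5xFAD cortex and 12.2 in WT cortex, 67.0 in 5xFAD and 7.30 in WT hippocampus, and 39.4 in 5xFAD and 44.5 in WT cerebellum. H2-DMa had medians of 346 CPM in 5xFAD and 254 in WT cortex, 366 in 5xFAD and 255 in WT hippocampus, and 277 in 5xFAD and 465 in WT cerebellum.

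**Figure D2:**
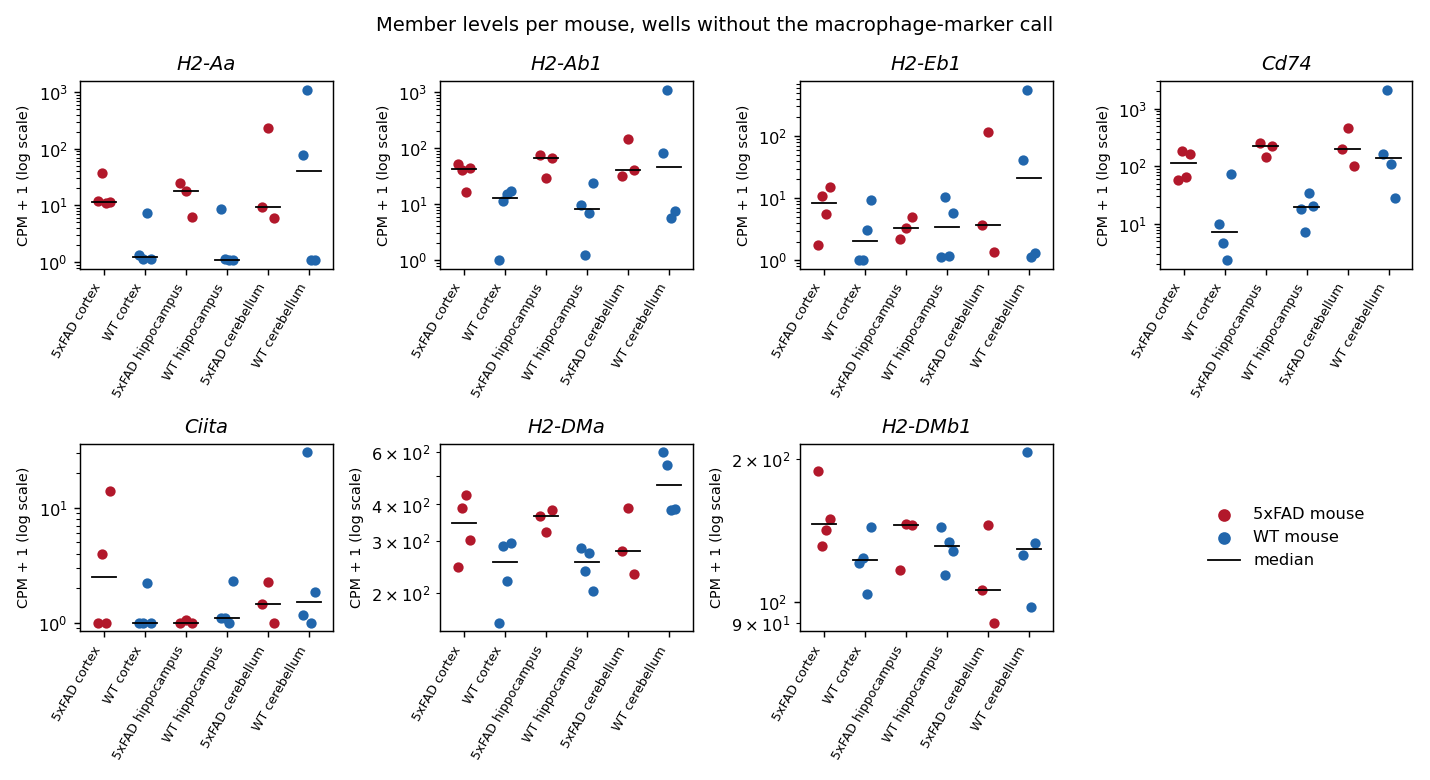
Level of each member in the wells outside the macrophage-marker call, as CPM + 1 on a log axis; each dot is the sum over the wells of 1 mouse in 1 region, red for 5xFAD and blue for WT, and the line is the median. The Cd74 dots of 5xFAD hippocampus (147 to 248 CPM) lie above all WT hippocampus dots (6.22 to 33.3 CPM), while in cerebellum WT mouse 2 is the highest dot for 6 of the 7 members.

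In cortex, 5xFAD against WT, 0 of 7 members were called in edgeR's quasi-likelihood test over all 22 sums; of 17218 genes tested 0.319% were called. H2-DMa, 1 member, had an unadjusted p below 0.05, beside 11.7% of all genes. DESeq2 and limma on mean CPM called 0 members as well, beside 2.65% and 0.674% of all genes. Cd74 had a log2 fold change of 2.45 ± 1.17 (SE, adjusted p = 0.428), H2-Ab1 of 1.88 ± 1.29 (adjusted p = 0.662) and H2-DMa of 0.51 ± 0.22 (adjusted p = 0.397). The sums of the genotypes did not overlap for 1 member, H2-Aa, with 10.8, 36.1, 10.2 and 10.5 CPM in 5xFAD, against 0.358, 0.120, 6.25 and 0.112 CPM in WT; among all genes tested 5.83% did not overlap. All 7 fold changes were above 0, with a median of 1.88 beside -0.08 over all genes.

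In hippocampus, 0 of 7 members were called between 5xFAD and WT by edgeR, against 1.13% of all genes, and DESeq2 and limma called 0, against 4.37% and 1.95%. In edgeR 2 members had an unadjusted p below 0.05, beside 13% of all genes. Of the 7 fold changes 5 were above 0, with a median of 0.52 beside 0.09 over all genes. Cd74 had a log2 fold change of 3.43 ± 1.26 (adjusted p = 0.310), H2-Ab1 of 2.57 ± 1.37 (adjusted p = 0.437) and H2-DMa of 0.52 ± 0.24 (adjusted p = 0.365). The sums did not overlap for these 3 members, each higher in 5xFAD, where 11.2% of all genes did not overlap in either direction. H2-DMa had 366, 322 and 381 CPM in 5xFAD, against 284, 238, 273 and 202 CPM in WT. Cd74 passed where only the 4 WT and 3 5xFAD hippocampal sums entered the fit (3.46, adjusted p = 0.0112) and where 1 macrophage marker sufficed to leave a well out (3.46, adjusted p = 0.0490). The range of its adjusted p over the other settings is wide, from 1.12e-21 with no filter on low counts to 0.974 with all wells.

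In cerebellum, 0 of 7 members were called between 5xFAD and WT by edgeR, against 0.0465% of all genes, and 0 by DESeq2 and limma, against 2.1% and 0.0581%. Of the 7 fold changes 0 were above 0, with a median of -1.89 beside -0.01 over all genes. An unadjusted p below 0.05 was found for 1 member and for 9.85% of all genes. That member was H2-DMa, with 277, 388 and 232 CPM in 5xFAD, against 600, 545, 381 and 385 CPM in WT (log2 fold change -0.68 ± 0.24, adjusted p = 0.500). Cd74 had -1.25 ± 1.23 (adjusted p = 0.852) and H2-Ab1 -2.07 ± 1.43 (adjusted p = 0.691). Without WT mouse 2 they had 1.36 (adjusted p = 0.672) and 1.21 (adjusted p = 0.841), so the sign rested on that mouse. Where 1 macrophage marker left a well out they had 0.37 and 0.89. No overlap-free member was found, beside 6.49% of all genes.

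These values hold for the wells outside the macrophage-marker call. With all kept wells summed, the single macrophage-marker well of WT cortex brought Cd74 of WT mouse 1 to 2073 CPM and turned the fold change of Cd74 in cortex to -2.18 (adjusted p = 0.751) and of H2-Ab1 to -3.23 (0.511). The single one of WT hippocampus brought Cd74 of WT mouse 3 to 1262 CPM, with fold changes of -0.66 (adjusted p = 0.974) for Cd74 and -1.49 (0.867) for H2-Ab1. The genotype effect was also compared between regions. The difference of the effect on Cd74 was 0.98 ± 1.63 for hippocampus minus cortex (adjusted p = 0.969), -3.70 ± 1.71 for cerebellum minus cortex (adjusted p = 0.485) and 4.68 ± 1.78 for hippocampus minus cerebellum (adjusted p = 0.302). By edgeR 0 of 7 members were called in each, beside 0.0348%, 0.0813% and 0.325% of all genes. At an unadjusted p below 0.05 there were 0, 2 and 3 members, beside 11.1%, 10.1% and 11.5% of all genes, and DESeq2 called 0, 1 and 1, beside 2.06%, 2.21% and 3.07%.

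Class II-positive wells were counted next, defined by at least 2 of H2-Aa, H2-Ab1, H2-Eb1 and Cd74 at 50 CPM or more. In cortex, 8.21% ± 2.82 of the wells of a 5xFAD mouse were positive (SD, n = 4; 8.51, 11.1, 4.35 and 8.89%), against 1.19% ± 2.38 of the wells of a WT mouse (n = 4; 0, 0, 0 and 4.76%). In hippocampus the shares were 9.95% ± 4.75 in 5xFAD (n = 3; 6.00, 8.62 and 15.2%), against 2.22% ± 1.86 in WT (n = 4; 2.17, 0, 2.17 and 4.55%). In cerebellum they were 8.59% ± 3.77 in 5xFAD (n = 3; 11.9, 9.43 and 4.48%), against 4.83% ± 4.83 in WT (n = 4; 3.03, 11.4, 4.88 and 0%).

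The difference in hippocampus, 7.72 percentage points, had p = 0.0286 in a two-sided exact permutation test over mice, the smallest p this design allows, and 0.0857 after adjustment over the 3 regions. In cortex it was 7.02 points (exact permutation p = 0.0571, adjusted 0.0857). In cerebellum it was 3.76 points (exact permutation p = 0.314, adjusted 0.314). None passed after adjustment. With wells thinned to 50000 reads the differences were 6.91 points in cortex and 6.83 in hippocampus, and both passed (exact permutation p = 0.0286, adjusted 0.0429). Plate cannot be told apart from genotype here.

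**Figure D3:**
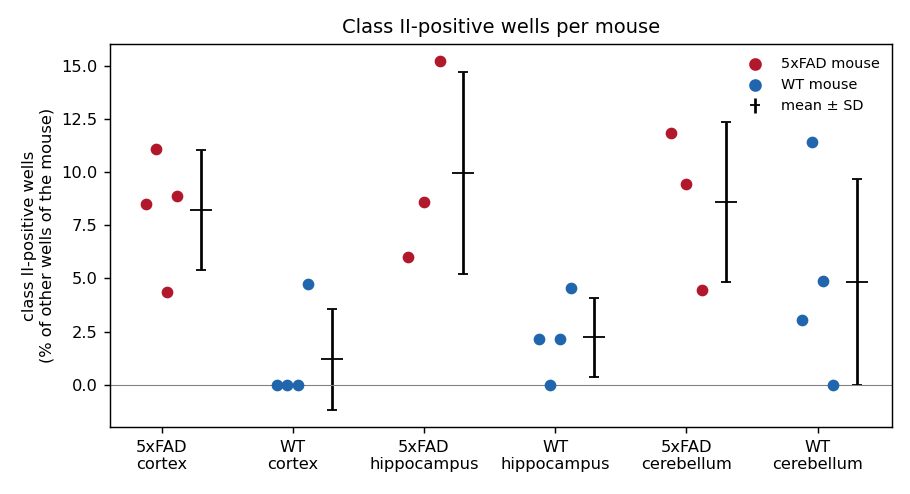
Share of class II-positive wells among the wells outside the macrophage-marker call, in percent; each dot is 1 mouse (red 5xFAD, blue WT), and the bar shows the mean ± SD. The 3 dots of 5xFAD hippocampus (6.00 to 15.2%) lie above the 4 of WT hippocampus (0 to 4.55%), and those of cortex and cerebellum overlap.

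Between regions of 1 genotype edgeR called 0 of 7 members in each of 6 comparisons. On a shared plate, 5xFAD hippocampus against 5xFAD cerebellum gave Cd74 a log2 fold change of -0.32 ± 1.27 (adjusted p = 1.0), beside 0.238% of all genes called, and WT hippocampus against WT cortex gave -0.17 ± 1.12 (adjusted p = 1.0), where 0 of all genes were called. DESeq2 called 0 members in both, beside 2.0% and 1.7% of all genes, and 0 had an unadjusted p below 0.05, beside 7.78% and 10.5%. In WT cerebellum against WT cortex, on different plates, 0.197% of all genes were called and an unadjusted p below 0.05 was found for 5 of 7 members and 12% of all genes. Cd74 had 4.82 ± 1.30 (adjusted p = 0.177) there. Without WT cortex mouse 4 it had 7.04 (adjusted p = 0.0354), and without WT cerebellum mouse 2 it had 2.22 (adjusted p = 0.451). H2-DMa had 600, 545, 381 and 385 CPM in WT cerebellum, against 158, 289, 219 and 296 CPM in WT cortex, with no overlap, which held for 4.66% of all genes (log2 fold change 0.99 ± 0.22, adjusted p = 0.0678). It had 1.09 without WT cerebellum mouse 4 (adjusted p = 0.0424). DESeq2 called 5 members in this comparison, beside 3.17% of all genes, and limma 2, beside 0.459%. H2-Aa had 477, 9673, 1 and 1 reads in the WT cerebellar mice, and H2-Eb1 had 246, 4886, 1 and 3. A single well held 82.9% of the reads of H2-Aa, H2-Ab1, H2-Eb1 and Cd74 in WT cerebellum outside the call. DESeq2 and limma were run only with that well included.

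H2-DMa had -0.94 ± 0.22 in WT hippocampus against WT cerebellum (adjusted p = 0.0746), again with no overlap; 0.296% of all genes were called, and 4.51% did not overlap. In edgeR 5 members had an unadjusted p below 0.05, beside 13.5% of all genes, and DESeq2 called 4, beside 3.82%. The same WT cerebellar sums, with that single high well, entered this comparison. In the 2 remaining comparisons, 5xFAD cerebellum against 5xFAD cortex and 5xFAD hippocampus against 5xFAD cortex, 0 and 1 member had an unadjusted p below 0.05, beside 8.04% and 8.22% of all genes. DESeq2 called 0 members in both, beside 1.48% and 1.35% of all genes, and edgeR called 0.029% and 0.0465% of all genes. These comparisons share their control sums with one another. In the cerebellum, the monocyte markers reached a summed 2367 CPM in 1 5xFAD mouse and 362 CPM in 1 WT mouse, against at most 47.0 CPM in any cortical or hippocampal sum, and the neutrophil markers reached 15815 CPM in 1 5xFAD cerebellar mouse, against at most 7.63 CPM in any WT sum. Their part in these results was not tested.

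Within the 5xFAD wells outside the call, class II was set against a panel of 5 genes of disease-associated microglia, the state described around plaques: Cst7, a cystatin, Lpl, lipoprotein lipase, Itgax, an integrin chain, Clec7a, a lectin receptor, and Ch25h, cholesterol 25-hydroxylase. A well with at least 2 of them at 50 CPM or more was panel-positive; 101 wells had 1 panel gene and 51 had 2, on either side of the limit. In cortex, 11 of 57 panel-positive wells (19.3%) were class II-positive, against 4 of 126 panel-negative wells (3.17%). In hippocampus it was 13 of 83 (15.7%) against 2 of 71 (2.82%), and in cerebellum 9 of 32 (28.1%) against 6 of 147 (4.08%). Median depth of these wells was 269019, 356658 and 351302 reads in panel-positive and 255691, 282743 and 341245 in panel-negative wells, in the same order of regions. Most panel-positive wells thus held no class II call. Seen from the other side, 33 of 45 class II-positive 5xFAD wells were panel-positive (73.3%), against 139 of 471 class II-negative ones (29.5%), while P2ry12 passed 50 CPM in 95.6% and 96.4% of them. The median level of P2ry12 was 2689 CPM in class II-positive and 4861 CPM in class II-negative 5xFAD wells, and that of Tmem119 was 1425 and 3274 CPM, with no test. Of the 13 class II-positive WT wells, 1 was panel-positive (7.69%), against 13 of 484 class II-negative WT wells (2.69%).

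Cd74 was higher in panel-positive wells of every 5xFAD mouse and region. In cortex it had 198, 307, 188 and 407 CPM in panel-positive sums, against 6.97, 114, 11.4 and 27.1 CPM in panel-negative sums. In hippocampus it had 352, 205 and 325 CPM, against 76.3, 46.4 and 25.8 CPM. In cerebellum it had 540, 910 and 715 CPM, against 29.4, 433 and 13.4 CPM. Within each region the 2 classes did not overlap for Cd74; of all genes tested 7.95% did not overlap in cortex, 16.8% in hippocampus and 18.1% in cerebellum, in either direction.

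In edgeR's test with the mouse as a block, 0 of the 6 members tested passed in any region; Ciita did not pass the filter on low counts. Cd74 had log2 fold changes of 3.61 ± 0.62 in cortex (adjusted p = 0.116), 2.65 ± 0.48 in hippocampus (adjusted p = 0.283) and 3.78 ± 0.99 in cerebellum (adjusted p = 0.958), beside 0.23%, 0.0465% and 0 of all genes called, panel genes included. Members at an unadjusted p below 0.05 numbered 1, 3 and 2, beside 7.33%, 6.04% and 5.07% of all genes. H2-Aa was among them in hippocampus and cerebellum. In hippocampus it had 0 to 0.569 CPM in panel-negative sums, against 8.03 to 39.5 CPM in panel-positive sums. It thus met the filter there only through the class where it is high, and its result is not independent of that class. In cerebellum its panel-negative median was 0.602 CPM. DESeq2 called 1, 3 and 2, beside 5.56%, 5.45% and 6.07% of all genes, with Cd74 in each region (adjusted p = 7.37e-09, 2.93e-05 and 0.00412). H2-Ab1 had 2.61 ± 1.37 in cortex (adjusted p = 0.779), 3.77 ± 1.14 in hippocampus (adjusted p = 0.728) and 1.19 ± 0.74 in cerebellum (adjusted p = 0.958). H2-DMa had 0.41 ± 0.24, 0.29 ± 0.31 and -0.05 ± 0.41 in the same regions (adjusted p = 0.808, 0.927 and 0.997), with 323 to 438, 322 to 383 and 220 to 383 CPM in panel-positive sums, against 210 to 399, 222 to 394 and 230 to 395 CPM in panel-negative sums.

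**Figure D4:**
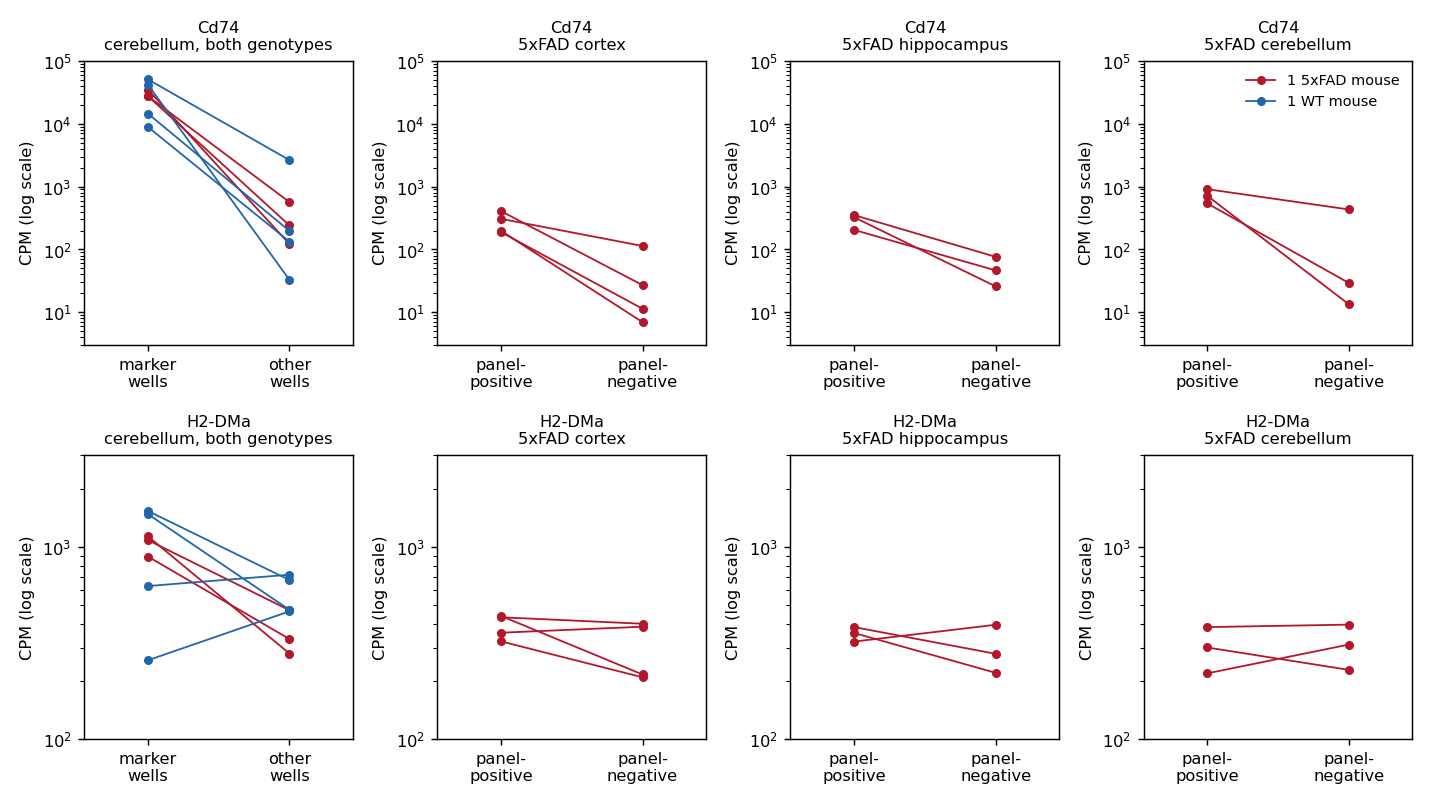
Cd74 (top row) and H2-DMa (bottom row) in sums of 1 mouse each, in CPM on a log axis; lines join the 2 classes of wells of a mouse. The left panels set macrophage-marker wells beside the other wells of the cerebellum, and the next 3 columns panel-positive beside panel-negative wells of 5xFAD mice. The Cd74 lines fall to the right in each panel, while those of H2-DMa run in both directions.

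Other genes of the pathway were called in cortex and hippocampus. Of 9 loading, editing and protease genes, 8 were tested; 1 rose in 5xFAD cortex, 2 in hippocampus and 0 in cerebellum, and 0 fell. Ctsl, a lysosomal cysteine protease, rose by 0.85 ± 0.12 (SE) on the log2 scale in cortex (adjusted p = 0.000281) and by 1.22 ± 0.12 in hippocampus (adjusted p = 1.46e-06). In hippocampus Ctsl had 3468, 3281 and 3833 CPM in 5xFAD, against 1344, 1515, 1623 and 1589 CPM in WT. Ctss, the protease known for trimming the invariant chain in antigen-presenting cells, rose by 0.55 ± 0.08 in hippocampus (adjusted p = 0.000231). The effect on both was larger in hippocampus than in cerebellum, by 1.11 ± 0.18 for Ctsl (adjusted p = 0.00229) and 0.54 ± 0.12 for Ctss (adjusted p = 0.0334).

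Of 7 interferon gamma signalling genes, 0 rose, and Ifngr1, a chain of the receptor, fell in 5xFAD hippocampus, with a log2 fold change of -0.70 ± 0.14 (adjusted p = 0.00923). Of 7 enhanceosome genes (Rfx5, Rfxank, Rfxap, Nfya, Nfyb, Nfyc, Creb1), 4 co-stimulation genes and 2 ubiquitin ligase genes, 0 were called between the genotypes in any region. In macrophage-marker wells against the others, 5 of 7 loading and protease genes tested were lower and 0 higher; 21.5% of all genes tested were called in either direction, and the median of all genes was -2.68. Ctsl had -5.23 ± 0.78 (adjusted p = 8.22e-09) and passed 50 CPM in 28.6% of macrophage-marker wells, against 91.5% of the others. Ctss had -1.18 ± 0.44 (adjusted p = 0.0401) and Lgmn, the asparaginyl endopeptidase, -1.97 ± 0.49 (adjusted p = 0.00189), both nearer to 0 than that median.

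Genes with the pattern most like the mean log2 CPM of H2-Aa, H2-Ab1, H2-Eb1 and Cd74 were sought over the 22 sums, among 17218 genes without the macrophage-marker wells and 17358 with all kept wells. Without those wells they were Wfdc17 (Pearson r = 0.784), Naaa (0.777), Ptk2b (0.766), Cd44 (0.756), Milr1 (0.755) and Coro1c (0.701). With all kept wells they were Cd93 (0.924), Pf4 (0.919), Clec12a (0.911), Apobec1 (0.855), Mgl2 (0.853) and Mndal (0.842). Of the members outside the mean, H2-DMa had 0.686, Ciita 0.574 and H2-DMb1 0.501 without the macrophage-marker wells. The sums share plates and groups, so these values only describe them.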

How the data were processed

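The authors deposited raw counts, reads per gene and well, of 1152 wells on 3 plates. The submitters' processing notes name STAR 2.5.2b, featureCounts 1.5.1 and GRCm38; which annotation and strand setting the counting used was not given in the sources used here. In 96 deposited columns, those of plate columns 1 and 2, wells 10 to 19 or 20 to 24 of the same plate row had been added; subtracting them gave 0 negative values, against 506416 with the next row. ERCC spike-ins were left out of totals. Kept wells were summed per mouse and region (22 sums, 5476145 to 24831497 reads outside the macrophage-marker call) and tested with edgeR 4.0.16 in R 4.3.3 (TMM, filterByExpr, 1 quasi-likelihood fit with a term per group, threshold 0.05); limma 3.58.1 and DESeq2 1.42.0 were alternatives. The steps were tested on simulated data. Members, gene lists, panel and tests were chosen with earlier results of these data known. Named genes were the members, up to 4 genes of a pathway list by p, and the 6 most alike. Some alternatives, a stricter microglia definition among them, were added after seeing the data. Some items are not reported here.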

Additional observations from a re-analysis of the deposited data

Results flagged for a closer look

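Of 32 groups of 4 mice examined for a single far value with Dixon's test, 5 held one; chance gives about 1 in 20. H2-Aa was 5.18 log2 CPM in mouse 2 of 5xFAD cortex and 2.95 log2 CPM in mouse 1 of WT hippocampus, each far above the other 3 mice. In WT hippocampus this rested on 68 reads, against 1 read in each of the other 3 mice. The rate of 1 in 20 is not reliable at such counts. H2-Ab1 was -2.53 log2 CPM in mouse 1 of WT cortex, far below the others, where 0 reads were found. Ciita was 0.48 log2 CPM in mouse 3 of WT cortex, the one mouse of that group with reads of it. The share of class II-positive wells was 4.76% in mouse 4 of WT cortex, with 0% in the other 3. In these last 2 groups the other 3 mice were tied at 0, where any value above 0 meets the limit, so the rate of 1 in 20 does not hold for them.

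Among data outside the comparisons, the 99 dropped wells held reads of 2 members above the blank wells. Pooled, Cd74 had 103 CPM in the dropped wells, against 17.6 CPM in the 12 blanks, from 124 reads and 1 read. H2-DMa had 199.9 CPM in the dropped wells, against 0 reads in the blanks, which allows up to 52.9 CPM. Of these reads, 239 of 241 of H2-DMa and 115 of 124 of Cd74 were in the 22 dropped wells of 5xFAD hippocampus, and 1 well held 236 reads of H2-DMa.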

How the results depend on the processing

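Of 366 alternative values of counts and shares, 328 stayed on the same side or within 1.5 times. With no filter on low counts the members called in 5xFAD against WT were 3 in cortex, 3 in hippocampus and 1 in cerebellum, 2 in 5xFAD hippocampus against cerebellum, 5 in WT cerebellum against cortex, 5 in WT hippocampus against cerebellum, 1 in 5xFAD cerebellum against cortex, 3 and 3 for the differences cerebellum minus cortex and hippocampus minus cerebellum, and 1 for the panel in cortex and in hippocampus. DESeq2 called 5 and 4 in the WT cerebellum comparisons with cortex and hippocampus, 1 in each of those 2 differences and 1, 3 and 2 for the panel in cortex, hippocampus and cerebellum. One member was called in WT cerebellum against cortex with all kept wells, with the 2 stricter definitions of the population and with 1000 genes and 50000 reads, and 2 by limma; 1 in WT hippocampus against cerebellum with all kept wells or thinned; and 1 in 5xFAD against WT hippocampus with the marker limit at 1 or only 2 groups in the fit. Leaving out 1 mouse gave 0 to 1 in WT cerebellum against cortex and 3 to 5 in macrophage-marker wells, and 0 in the others. Of these alternatives, only DESeq2 and limma have their share of all genes called given above. For the other settings the counts show only how the calls moved with the setting, not whether members exceeded all genes.

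Positive shares passed in cortex and hippocampus with the strict microglia definition (7.84 and 7.80 points), with 1 of the 4 genes (17.97 and 31.2) and thinned (6.91 and 6.83); with all 4 genes the cerebellar difference was -0.385. Leaving out 1 mouse gave 6.06 to 8.31, 5.09 to 9.70 and 2.12 to 5.96 points.

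Of 539 alternative fold changes 512 kept their sign. With all kept wells the sign turned for Cd74 (-2.18) and H2-Ab1 (-3.23) in cortex, Cd74 (-0.66) and H2-Ab1 (-1.49) in hippocampus, and the differences of Cd74 (1.61 cerebellum minus cortex, -0.092 hippocampus minus cerebellum). In cerebellum, Cd74 had 0.37 with the marker limit at 1, 0.47 with the strict definition and 0.18 with a replicate block in voom, and H2-Ab1 0.89, 1.27 and 0.62; without 1 mouse they ran from -1.96 to 1.36 and -3.05 to 1.21. In 5xFAD hippocampus against cerebellum Cd74 had 0.56 with the limit at 1, 0.63 strict, 0.049 with the replicate block and -0.70 to 0.46 without 1 mouse. In WT hippocampus against cortex Cd74 had 1.14 by limma, 0.74 with the replicate block and -0.58 to 2.05 without 1 mouse. The difference of Cd74, hippocampus minus cortex, was -0.21 by limma and -1.25 to 1.397 without 1 mouse. H2-DMa of the cerebellar panel was 0.085 with RLE and with DESeq2, and -0.26 to 0.17 without 1 mouse. The causes were not tested. The replicate numbers left no trace in the counts (21 same-numbered pairs, r -0.03 to 0.03, 0 above 0.1), so the block is only an alternative. With it 0 of 7 members were called in each genotype and region comparison, the same number as without. At these depths 1 well can set a sum, and in the shallowest kept well, with 11054 reads, 1 read passes 50 CPM.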

Other observations

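Not every macrophage-marker well was rich in class II. Of the 14 in 5xFAD cerebellum, 11 had H2-Aa at 1000 CPM or more and 1 had 0 CPM, whereas all 12 of WT cerebellum had at least 3908 CPM. Cd74 was at least 1185 CPM in all 28.

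H2-Oa and H2-Ob, which form a dimer that restrains H2-DM and is best known from B cells, passed 50 CPM in 1 and 5 of the 28 macrophage-marker wells. In the wells outside the call they did so in 23.99% and 25.1%. H2-Oa was lower in the macrophage-marker wells of the cerebellum by edgeR, with a log2 fold change of -6.80 ± 2.27 (adjusted p = 0.0195), where the median of all genes was -2.68. The 6 B-cell markers had a summed 567 to 1090 CPM in every group of wells outside the call. In the macrophage-marker sums they had 52.9 to 1913 CPM, with a median of 1053 CPM. Cd79a, 1 of the 6, passed 50 CPM in 0.0987% of the wells outside the call.

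Wells with a trace of H2-Aa, at least 1 read but under 50 CPM, made up 14.5% of the wells outside the call in 5xFAD cerebellum and 6.49% in 5xFAD hippocampus, on the plate with 14 macrophage-marker wells. They made up 4.92% in 5xFAD cortex and 4.67% in WT cerebellum, on the plate with 12, and 2.41% in WT cortex and 1.66% in WT hippocampus, on the plate with 2. In the same order of groups, the shares were 20.7, 16.2, 8.74, 14, 5.42 and 2.76% for Cd74, 6.15, 9.09, 7.65, 7.33, 0.602 and 2.21% for H2-Ab1, and 10.1, 4.55, 6.01, 7.33, 0 and 1.66% for H2-Eb1. The order of the plates thus held for H2-Aa and Cd74 and not for H2-Ab1 and H2-Eb1, and the plate with 2 was lowest for all 4. In the same order of groups, median depth of the kept wells was 343580, 328896, 256681, 250052, 198492 and 235875 reads. The plate with 14 held only 5xFAD wells and the plate with 2 only WT wells. Depth and genotype were not separated from the plate here. The 12 blanks held 4 reads of members in all. Where these traces came from was not tested.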
